A study of Mus musculus with 5 samples.

Results

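Mir122, Mir124-1 and Mir142 are mouse microRNA loci whose products mark liver cells, neurons and blood cells, and RNA polymerase II was measured at them in 5 adult mouse tissues. They were chosen on their read counts in these same libraries, which put Mir122 with liver, Mir124-1 with brain and Mir142 with blood cells, so the lead of those tissues is a description and not a finding. Each locus is described in 1 fixed window. The windows run on chromosome 18 from 65395001 to 65425000 for Mir122, on chromosome 14 from 65195001 to 65225000 for Mir124-1 and on chromosome 11 from 87560001 to 87585000 for Mir142. These 3 windows cover 85 kb, or 170 bins of 500 bp, of the 4690020 such bins with at least 1 read in any library. They touch 33 of the 186413 regions obtained by merging the peaks of all tissues. The windows are stated in mm9 coordinates, and the labels name no genome build. Positions of the hairpins within the windows were not analysed here, so a maximum of reads is given by its position and is not called the start site of a gene.

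There was 1 library for each of spleen, lung, liver, kidney and brain, all from adult mice of the FVB strain (spelled FBV in the protocol). Chromatin from freshly dissected, formaldehyde-fixed tissue was precipitated with an antibody against RNA polymerase II, and the purified DNA was sequenced. The labels name no transgene or treatment, and they do not state the age beyond adult or how many animals gave each sample. There are no replicates, so no difference between tissues was tested, and all intervals are 95% exact intervals that cover counting error only. The reads carry no molecular identifiers, so some may be copies of 1 molecule, and the intervals can be too narrow.

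MicroRNA genes are transcribed by RNA polymerase II as long primary transcripts. Drosha and Dgcr8 cut a hairpin from the primary transcript in the nucleus, Dicer1 trims it in the cytoplasm, and an Argonaute protein carries the mature strand to messages that pair with its seed. miR-122 is known as the dominant microRNA of hepatocytes, where it bears on cholesterol and lipid metabolism. miR-124 is abundant in neurons and represses non-neuronal messages, among them that of the splicing regulator Ptbp1. miR-142 is known from cells of the blood lineages, lymphoid and myeloid alike. Reads over such a locus report polymerase on its DNA, before any processing, and not the amount of transcript made. A window can also hold polymerase of a neighbouring gene. The DNA strand of a read from precipitated chromatin says nothing of the strand transcribed.

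The table of mature microRNAs from RefSeq (GRCm38.p6) held 1 of the 3 loci, Mir142. Its products are shown because both arms of the hairpin are listed and because Mir142b, annotated on the opposite strand, overlaps it. The seed, bases 2 to 8, is in capitals.
miR-142a-5p: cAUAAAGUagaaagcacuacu
miR-142a-3p: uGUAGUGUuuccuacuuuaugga
miR-142b: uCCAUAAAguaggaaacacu
All 20 bases of miR-142b matched the reverse complement of miR-142a-3p from its first base. Of the 1738 mature microRNAs in the table, no other had any of these 3 sequences as its own seed at bases 2 to 8. In the RefSeq gene order of that build, Mir142 lies between Supt4a, a transcription elongation factor gene, and Tspoap1, with Mpo, the myeloperoxidase gene, further on. Mir122 lies before Alpk2, and Mir124-1, listed as Mir124a-1, lies inside its host transcript Mir124a-1hg with Mir3078 next to it and Kif13b beyond.

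Depth ranged from 10292262 aligned reads in brain to 14964934 in liver. Normalised counts are reads divided by a factor per library, obtained from 8206 merged peak regions that hold 20 or more reads in all libraries. The factors were 0.666 for spleen and 1.03 to 1.16 for the other tissues. The spleen factor was far below its factor by total reads, 1.06, so this scaling raises every spleen count, background included. Each window is therefore also given over a uniform spread, which involves no other library's scaling. This is the count it would hold if the reads of its own library lay evenly over the chromosomes. Reads in enriched regions count towards this spread, so background can lie below it. Forward and reverse reads were offset most often by 332 bp in brain and 362 bp in lung, against 139 to 149 bp in the other libraries, over the first 20 Mb of chromosome 19. At the loci the offset was 112 bp for liver at Mir122, 370 bp for brain at Mir124-1 and 187 bp for spleen at Mir142. Brain and lung at Mir142 had 238 and 327 bp, so the brain value differed between loci. Only offsets of 60 to 400 bp were searched, and the largest values lay near that upper limit. Marker genes of the tissues were not used here, because gene positions in the build of the files were not analysed, so the tissue labels were not checked beyond these loci.

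At Mir122, polymerase lay in liver and in no other tissue above an even spread. The window held 7374 reads in liver, 171 in spleen, 134 in kidney, 111 in lung and 101 in brain. The liver count was 43.4 times (42.4 to 44.4) a uniform spread, whereas spleen was at 1.13, lung at 0.901, brain at 0.864 and kidney at 0.856, and all 4 intervals include 1. Liver alone stood out, and the intervals of the other 4 libraries overlapped on that scale. This single 30 kb window held 0.0493% of all liver reads.

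After normalisation liver was 24.8-fold (21.3 to 29.0) over spleen, 51.4-fold (43.3 to 61.4) over kidney, 64.5-fold (53.4 to 78.5) over lung and 64.6-fold (53.1 to 79.4) over brain. The window was chosen for this pattern, so these folds are descriptions. Of 82784 tiles of 30 kb with at least 20 liver reads, 0.645% were at least 2-fold and 0.17% at least 4-fold over each other tissue in liver, and 2 tiles (0.00242%) had as large a fold over the next tissue. Tiles over the locus itself were not left out, here or at the other loci, so they can be among those counted. Scaled by total reads, the fold over spleen was 38.3 (32.9 to 44.8). The order of the remaining tissues was spleen, kidney, lung, brain, and by total reads spleen, lung, brain, kidney. Only the step from spleen to kidney exceeded counting error, 2.08-fold (1.65 to 2.62). Under scaling by total reads no step below liver did, spleen standing 1.26-fold (0.985 to 1.61) over lung.

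**Figure D1:**
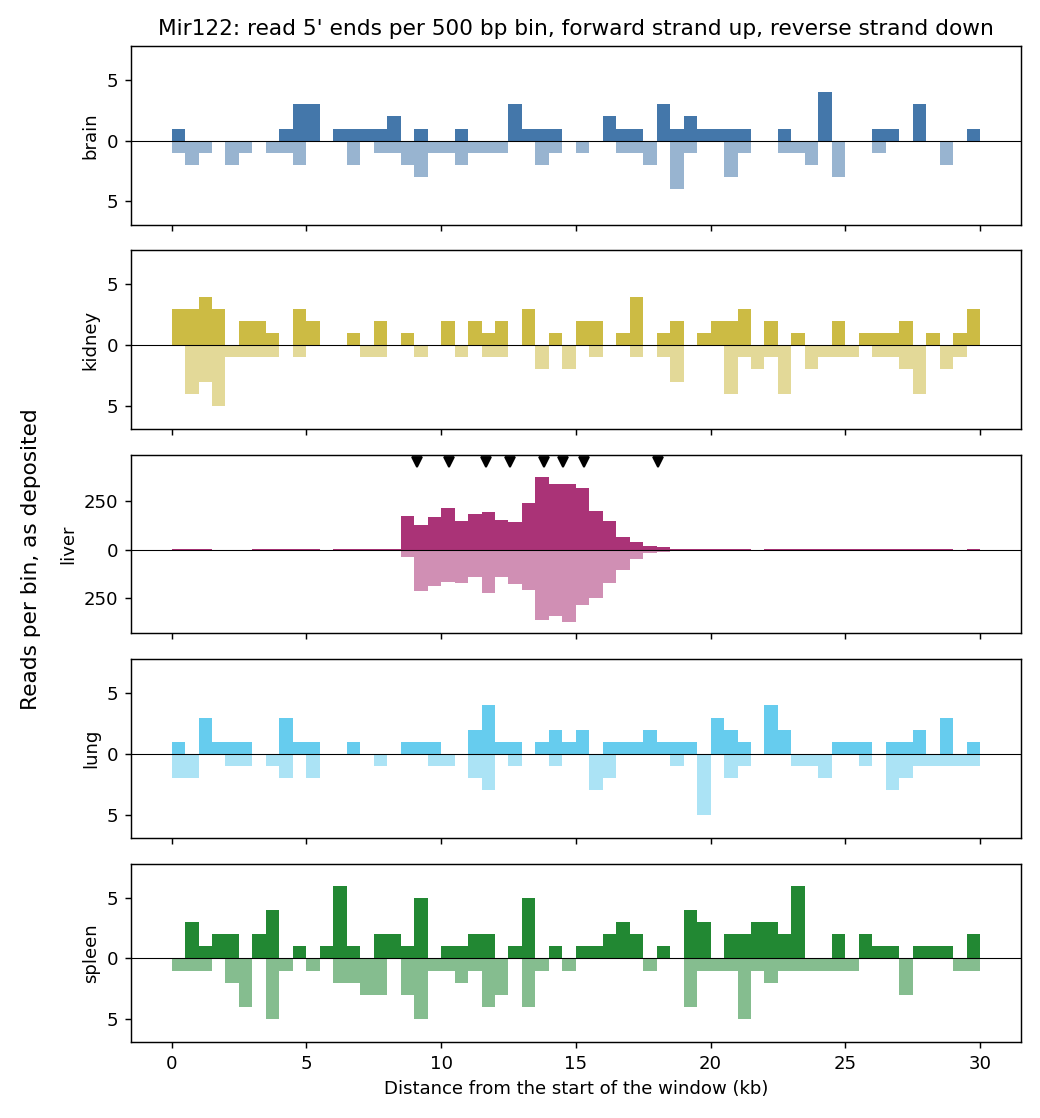
Read 5′ ends per 500 bp bin (vertical axis, reads as deposited, forward strand up and reverse strand down) along the Mir122 window (horizontal axis, kb from its start), with 1 panel per tissue and triangles at the deposited peaks. The liver panel has its own scale, since its bins reach 737 reads over both strands while no bin of another tissue passes 10.

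Liver polymerase at Mir122 formed 1 block of 10 kb with a sharp start and a gradual end, as the profile by strand shows. The 20 adjacent bins from 65403501 to 65413500 each held 20 or more liver reads and a normalised count 4 or more times that of any other tissue, a bin type called restricted below. Over the genome 16.8% of bins with at least 20 liver reads were restricted to liver. The block held 7223 of the 7374 liver reads, 98.0%. In the same 10 kb brain had 35 reads, kidney 33, lung 37 and spleen 56. Liver was 74.1-fold (57.0 to 98.1) over spleen there, or 114-fold (88.1 to 152) with scaling by total reads. Of 2825 runs of adjacent liver-restricted bins in the genome, 25 were longer than 20 bins, the longest having 74.

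The first edge of the block was narrow. Liver had 2 reads from 65403601 to 65403700, 26 in the next 100 bp, then 85, 96 and 99. On that rise forward reads came first: 82 forward against 3 reverse reads lay between 65403801 and 65403900, and 33 against 66 lay 200 bp further on. Before the edge, from 65395001 to 65403500, liver had 53 reads, 1.10 times (0.825 to 1.44) a uniform spread, so no excess was detectable there at this depth. The liver reads rose within 300 bp from an even spread to the level of the block.

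Within the block the density was uneven. Its first 4.5 kb, to 65408000, held 657 liver reads per kb. The next 3 kb held 1210 per kb and contained the highest bin, from 65408501 to 65409000, with 737 liver reads against 3 in brain, 2 in kidney and 1 each in lung and spleen. From 65411001 the density dropped to 255 per kb over 2.5 kb, and the counts of successive bins were 317, 171, 91, 35 and 24. Of all restricted liver bins, 36 of 6188 held at least as many reads as the highest bin here, which is itself among them. After the block, to 65425000, liver stayed at 1.5 times (1.22 to 1.83) a uniform spread, with 98 reads, while the other tissues there ran from 0.826 in brain to 1.07 in spleen. A liver lead over spleen there depended on the scaling: after normalisation spleen was 1.10-fold (0.788 to 1.53) over liver, and by total reads liver was 1.40-fold (1.01 to 1.96) over spleen.

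The authors' liver list placed 8 peaks in the window, from 65404110 to 65413060, at gaps of 700 to 2750 bp. No other tissue had a peak there, and the nearest outside the window lay 11525 bp away in kidney, 11780 bp in brain, 16615 bp in lung and 36695 bp in spleen. The whole lists held 91712 peaks in brain, 81375 in kidney, 72971 in lung, 57816 in liver and 31594 in spleen. Peak counts and distances to the nearest peak depend on these lengths, here and at the other loci. Reads within 250 bp of the liver peaks went from 752 at 65409510 down to 35 at 65413060, the last. The last peak thus lay on the weak trailing end of the block. Most of the signal was local: the 200 kb on both sides held 11.3 liver reads per kb against 246 in the window. They also held 2 liver-restricted bins, the nearest 8.5 kb before the window, and the nearest liver peak outside lay 3775 bp away.

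At Mir124-1 brain was the high tissue, at a lower level over a uniform spread than liver had at Mir122. The window held 1374 brain reads, against 152 in liver, 143 from spleen, 116 from kidney and 94 from lung. Brain was at 11.8 times (11.1 to 12.4) a uniform spread, liver at 0.894, spleen at 0.948, kidney at 0.741 (0.612 to 0.889) and lung at 0.763 (0.617 to 0.934). Brain alone was high. Kidney and lung lay below an even spread beyond counting error, but that spread also counts reads in enriched regions. Their median bins here, 2 reads in kidney and 1 in lung, equalled those of all bins with a read in any library.

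After normalisation brain was 6.24-fold (5.25 to 7.46) over spleen, 10.2-fold (8.64 to 12.2) over liver, 12.5-fold (10.3 to 15.2) over kidney and 16-fold (13 to 19.98) over lung. Scaling by total reads gave other values: the fold over spleen was 12.4 (10.4 to 14.8) and spleen and liver did not differ beyond counting error, at a ratio of 1.06 (0.838 to 1.34). Of 81239 tiles of 30 kb with at least 20 brain reads, 0.174% were at least 2-fold over each other tissue in brain, 3 tiles (0.00369%) were at least 4-fold over each, and 0 were as far over the next tissue as this window. The window was placed around a locus already known to be high in brain, while tiles start at fixed positions, so a tile can split a locus. Tiles over this locus were not left out and can be among those counted.

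**Figure D2:**
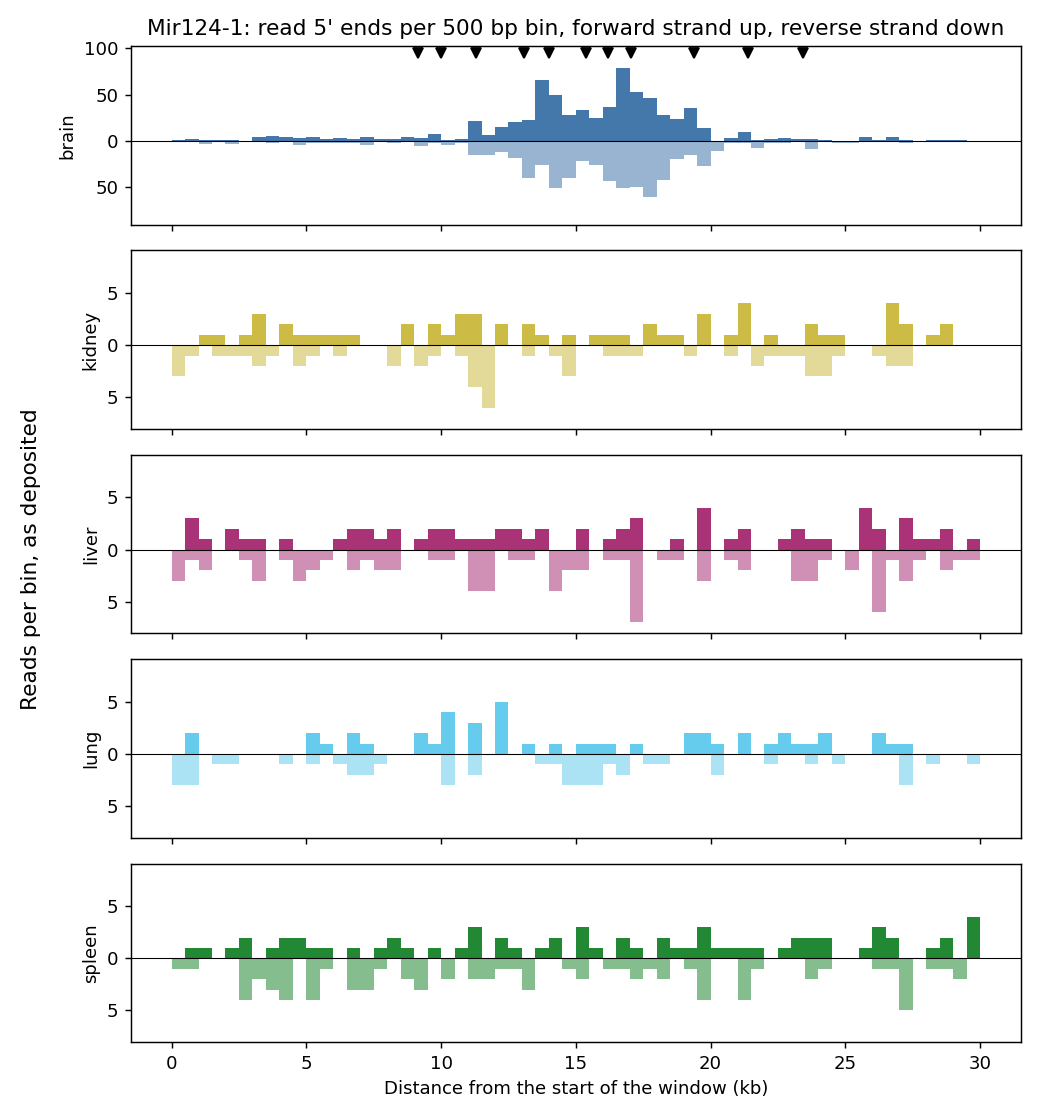
Read 5′ ends per 500 bp bin (vertical axis, reads as deposited, forward strand up and reverse strand down) along the Mir124-1 window (horizontal axis, kb from its start), with 1 panel per tissue and triangles at the deposited peaks. The brain panel has its own scale and shows 2 maxima, its highest bin holding 130 reads over both strands; no bin of another tissue passes 10.

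The brain signal at Mir124-1 spread over 9 kb with 2 maxima, which the plot of reads along that window displays. From 65206001 to 65215000 brain held 1179 reads, 85.8% of those in the window, or 33.6 times (31.7 to 35.6) a uniform spread. Kidney had 38 reads there, liver 54, lung 36 and spleen 47, and the interval of each over a uniform spread includes 1. Brain was 16.3-fold (12.2 to 22.3) over spleen and 24.7-fold (18.8 to 33.1) over liver in this block. Scaled by total reads, these folds were 32.4 (24.2 to 44.3) and 31.7 (24.2 to 42.5).

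In the first maximum, from 65208501 to 65209500, brain held 193 reads, and in the second, from 65211501 to 65213000, 340 reads or 227 per kb. Between them, from 65210001 to 65211000, the density was lower, 106 reads per kb. The other tissues had 2 to 6 reads each in the first maximum and 4 to 13 in the second. Forward reads outnumbered reverse reads in the first maximum, 116 to 77, and were 178 to 162 in the second. The highest bin, from 65211501 to 65212000, held 130 brain reads, 3 in liver, 3 in spleen and 2 each in kidney and lung. The 2 maxima were thus separate in brain, and neither was visible in another library at this depth.

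Of the 60 bins of the window 18 held at least 20 brain reads, and 16 of these were restricted to brain, against 6.24% of all such bins in the genome. They included a run of 15 adjacent bins, from 65207001 to 65214500, and none of the 1055 runs of brain-restricted bins in the genome was longer. The 2 bins that fell short, from 65206501 and from 65214501, were 3.70-fold over kidney and 3.80-fold over spleen, while the bin just inside the limit, from 65206001, was 4.80-fold over spleen. By total reads all 18 were restricted, against 12.2% in the genome.

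Brain reads also lay outside the block. From 65195001 to 65206000 brain was at 2.57 times (2.11 to 3.09) a uniform spread and from 65215001 to 65225000 at 2.18 times (1.74 to 2.70), while the other libraries ran from 0.714 to 0.958 before the block and from 0.585 to 0.865 after it. Those 2 flanks held 110 and 85 brain reads. Before the block brain was, after normalisation, 2.83-fold (1.96 to 4.16) over kidney, 2.54-fold (1.80 to 3.63) over liver and 3.55-fold (2.40 to 5.38) over lung. Over spleen it was 1.35-fold (0.962 to 1.91), within counting error, and 2.68-fold (1.91 to 3.79) with scaling by total reads. After the block brain was 2.43-fold (1.63 to 3.67) over kidney, 1.96-fold (1.36 to 2.85) over liver, 3.88-fold (2.45 to 6.39) over lung and 1.28-fold (0.879 to 1.90) over spleen, or 2.55-fold (1.75 to 3.77) over spleen by total reads. The block at Mir122 had a sharper border on its first side, where liver was at 1.10 times a uniform spread.

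The authors' brain list placed 11 peaks in the window, from 65204145 to 65218445, and no other tissue had one. Outside the window the nearest peaks of the other tissues lay 26250 bp away in liver, 26255 bp in kidney, 27180 bp in lung and 46530 bp in spleen. The nearest brain peak outside lay 1845 bp away. Reads within 250 bp of the brain peaks reached 125 at 65212045 and 114 at 65208995. At 4 of the 11 peaks, those at 65204145, 65204995, 65216395 and 65218445, brain had 8 to 13 reads and other tissues 1 to 6. These 4 peaks lay outside the block, where the brain reads were sparse.

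**Figure D3:**
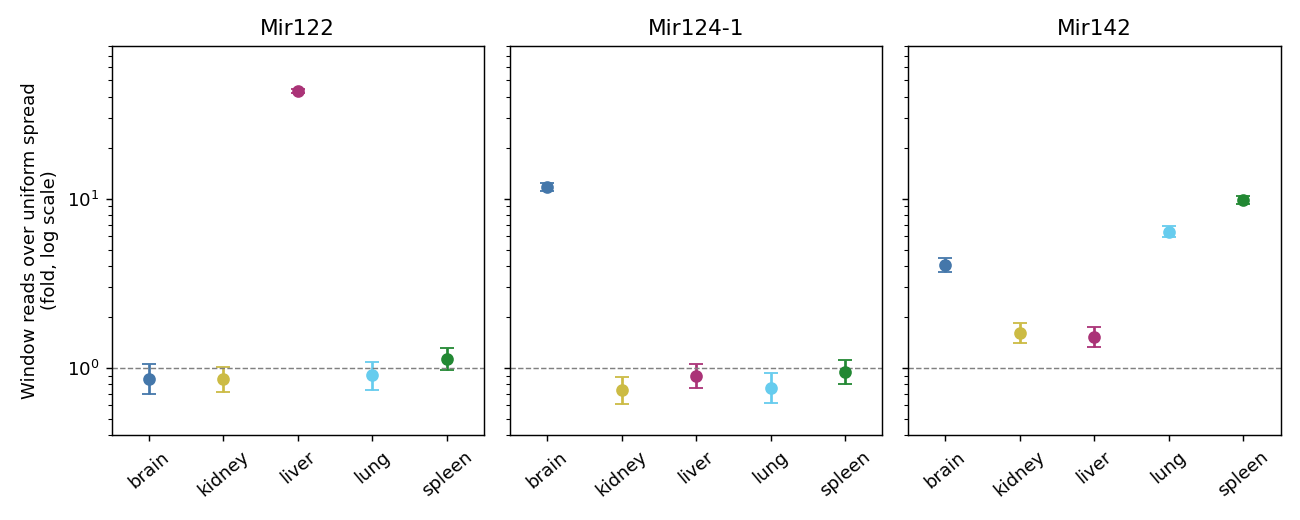
Reads in each window over a uniform spread of the same library (vertical axis, fold, log scale) for the 5 tissues (horizontal axis), with 1 panel per locus; points are single libraries, bars are 95% exact Poisson intervals and the dashed line marks a uniform spread. Liver stands at 43.4 at Mir122 and brain at 11.8 at Mir124-1 with all other libraries near 1, while at Mir142 spleen, lung and brain stand at 9.84, 6.39 and 4.06.

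At Mir142 the window was shared between tissues: spleen was highest, followed by lung and then brain. It held 1237 reads in spleen, 656 in lung, 395 in brain, 216 in liver and 210 in kidney. Over a uniform spread these were 9.84 (9.30 to 10.4) in spleen, 6.39 (5.91 to 6.90) in lung, 4.06 (3.67 to 4.48) in brain, 1.61 (1.40 to 1.84) in kidney and 1.53 (1.33 to 1.74) in liver. All 5 libraries were above an even spread, unlike at the other loci, and liver and kidney did not differ beyond counting error, as the plot of levels in the windows shows. In bulk tissue, fewer cells of a type and less polymerase per cell cannot be told apart, and the share of blood cells in each sample was not measured here.

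The distance of spleen from lung depended on the scaling. After normalisation spleen was 3.19-fold (2.90 to 3.51) over lung, 4.82-fold (4.30 to 5.42) over brain, 9.58-fold (8.27 to 11.1) over kidney and 9.97-fold (8.62 to 11.6) over liver. On total reads the fold over lung was 1.54 (1.40 to 1.70) and that over brain 2.43 (2.16 to 2.72). A spleen lead of 2-fold was common under the first scaling, in which the spleen factor is low. Of 25 kb tiles with at least 20 spleen reads, 19.1% had it over each other tissue and 0.0463% were 4-fold over each. The fold of this window was reached by 0.234%. These shares were not computed with scaling by total reads. The order spleen, lung, brain and then kidney and liver was the same under both scalings, with each of the first 3 steps beyond counting error.

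**Figure D4:**
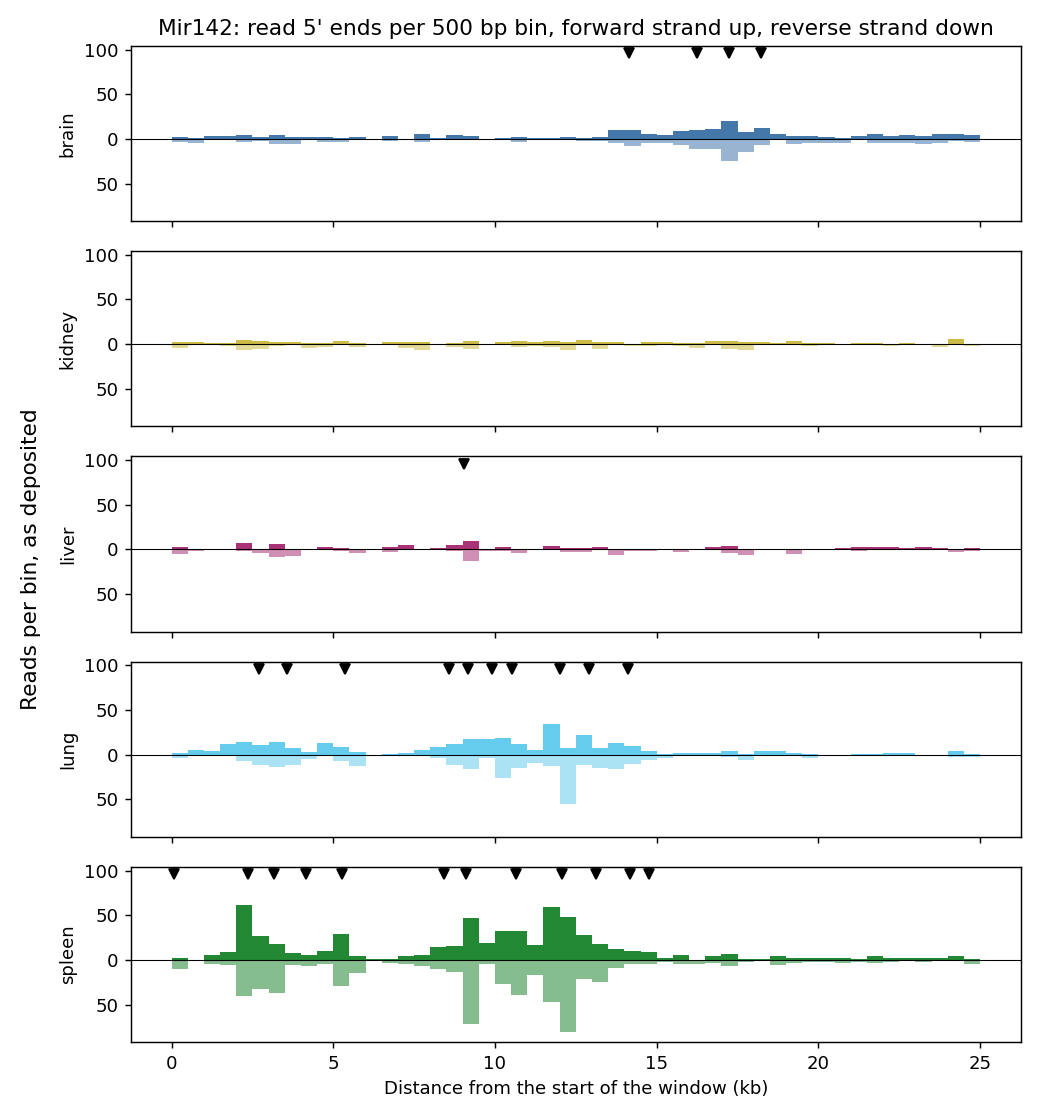
Read 5′ ends per 500 bp bin (vertical axis, reads as deposited, forward strand up and reverse strand down, 1 scale for all panels) along the Mir142 window (horizontal axis, kb from its start), with 1 panel per tissue and triangles at the deposited peaks. Spleen and lung have 91.6% and 89.9% of their reads in the first 15 kb, and brain has 63.3% of its reads in the last 10 kb.

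Spleen and lung held most of their reads in the first part of the Mir142 window and brain in the last. This split was made after the profiles were seen. In the first 15 kb, to 87575000, spleen had 1133 reads, 91.6% of its reads in the window, and lung 590, 89.9%. Brain had 145 there, liver 149 and kidney 146. In the last 10 kb brain had 250 reads, 63.3% of its own, spleen 104, liver 67, lung 66 and kidney 64. So the brain reads of this window mostly lay apart from those of spleen and lung. They overlapped before the boundary: successive bins from 87573501 to 87575000 held 14, 18 and 10 brain reads. Lung had 29, 20 and 10 there and spleen 21, 15 and 14.

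In the first 15 kb spleen was 3.24-fold (2.93 to 3.59) over lung and 12.0-fold (10.1 to 14.4) over brain after normalisation. Scaled by total reads, these were 1.57 (1.42 to 1.74) and 6.05 (5.09 to 7.25). Lung was at 9.58 times (8.82 to 10.4) a uniform spread there. Brain, kidney and liver, at 2.48, 1.87 and 1.75 times, were also above it beyond counting error. In the last 10 kb brain was 4.16-fold (3.16 to 5.54) over lung and 1.56-fold (1.24 to 1.98) over spleen after normalisation, or 3.10-fold (2.46 to 3.94) over spleen with scaling by total reads.

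Polymerase in spleen and lung formed 2 clusters with a gap between them. The first cluster, from 87561501 to 87566000, held 348 spleen and 159 lung reads. The gap of 1.5 kb held 14 in spleen and 5 in lung, near the 7 of brain, 11 of kidney and 13 of liver. The second cluster, from 87568001 to 87575000, held 737 spleen and 402 lung reads, or 20.9 times (19.5 to 22.5) and 14.0 times (12.7 to 15.4) a uniform spread. Both tissues thus fell together in the gap and rose again after it.

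**Figure D5:**
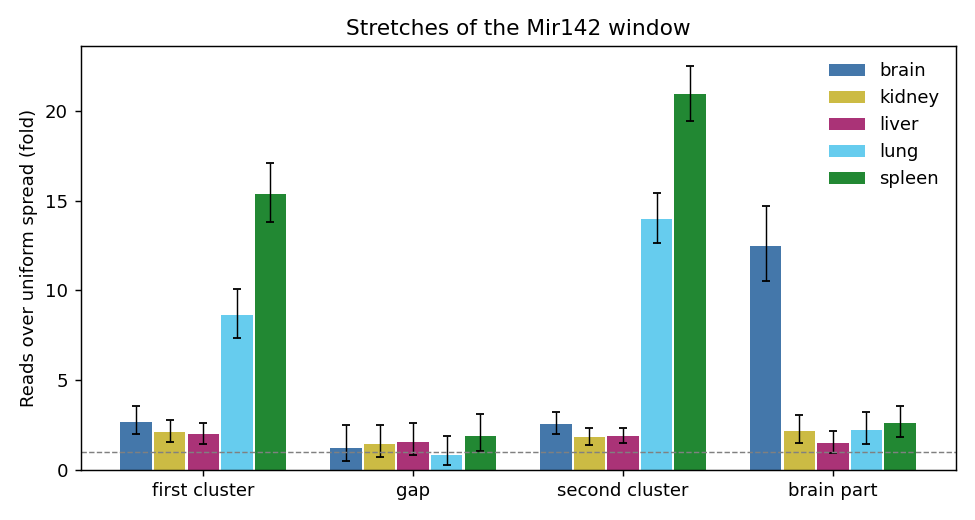
Reads over a uniform spread of the same library (vertical axis, fold) in 4 stretches of the Mir142 window (horizontal axis), with 1 bar per tissue and 95% exact Poisson intervals; the dashed line marks a uniform spread. Spleen and lung lead in both clusters, at 15.4 and 8.61 in the first and 20.9 and 14.0 in the second. Brain leads in the stretch labelled brain part at 12.5, with the other tissues at 1.47 to 2.59.

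Across the 50 bins of the window the counts of spleen and lung followed each other, with a Pearson r of 0.861 and a Spearman rho of 0.879. Brain against spleen gave r = -0.287 and brain against lung r = -0.277. Liver against spleen gave 0.544 and kidney against spleen 0.573, from bins of at most 22 and 11 reads. Bins share base composition and read mappability between libraries and are not independent, so these values describe the profiles and carry no p. At Mir122 liver against the other tissues gave r between -0.178 and 0.0435 over 60 bins, and at Mir124-1 brain against the others gave r between -0.0258 and 0.129.

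The highest bin of both spleen and lung was the same, from 87572001 to 87572500, with 128 spleen reads, 62 lung reads, 9 in kidney, 5 in liver and 2 in brain. The next highest spleen bin, from 87569001 to 87569500, held 119 spleen, 34 lung, 22 liver, 9 kidney and 3 brain reads, and it was the highest liver bin of the window. In the first cluster the bin from 87562001 to 87562500 held 101 spleen and 21 lung reads. Its spleen count was 8.13-fold over lung after normalisation, the largest such fold among the 16 bins with at least 20 spleen reads. The lead of spleen over lung varied along these bins, being 3.49-fold in the highest one and 1.22-fold from 87573501 to 87574000.

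Of 50 bins 16 held at least 20 spleen reads, and 6 of these were restricted to spleen, against 9.06% of such bins in the genome. They began at 87562001, 87562501, 87565001, 87569001, 87570501 and 87571001. On total reads 0 were restricted, against 2.21% in the genome. When lung was left out of the comparison, a choice made after the data were seen, 15 of the 16 bins were restricted to spleen, against 13.6% in the genome. Lung alone thus kept 9 of the other 10 bins from being restricted, and no bin was restricted to lung or brain under the first scaling. On total reads 3 of the 4 bins with at least 20 brain reads were restricted to brain, against 12.2% in the genome.

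The authors' lists placed 12 spleen peaks in the window, from 87560060 to 87574760, 10 lung peaks from 87562715 to 87574115, 4 brain peaks and 1 liver peak. Over the genome the spleen list was the shortest, with 31594 peaks against 72971 in lung and 91712 in brain. Of the 10 lung peaks 7 lay within 250 bp of a spleen peak. The spleen peaks here had a median gap of 1050 bp, so many positions between them lie near one. The same share over all lung peaks was not computed, so the 7 are a description only. The closest were the lung peak at 87572015 and the spleen peak at 87572060, and those at 87574115 and 87574160, both pairs 45 bp apart. The liver peak, at 87569050, lay 60 bp from the spleen peak at 87569110 and had 24 liver reads within 250 bp against 113 spleen reads. The position near 87574140 was listed in 3 tissues: brain, with 24 reads within 250 bp, and lung and spleen, each with a peak within 250 bp of it. Outside the window the nearest peaks lay 640 bp away in brain, 785 bp in lung and 1440 bp in spleen. In kidney and liver they lay 7180 and 9050 bp away.

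Brain had its remaining peaks of the window at 87576240, 87577240 and 87578240, where no other tissue had one. From 87575501 to 87578500 brain held 146 reads, 12.5 times (10.5 to 14.7) a uniform spread, and spleen 39, liver 25, lung 27 and kidney 34. The highest brain bin of the window, from 87577001 to 87577500, held 45 brain reads against 14 in spleen and 7 to 9 in the other tissues. Which gene this stretch belongs to was not analysed here. In the gene order of RefSeq, Tspoap1 follows Mir142 directly.

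The 3 loci are set side by side here as a description, since read counts in these bins chose them and the windows are of unequal length, 30 kb for Mir122 and Mir124-1 and 25 kb for Mir142. The central 80% of reads spanned 6.26 kb for liver at Mir122, 7.99 kb for brain at Mir124-1 and 11.8 kb for spleen at Mir142. Tissues near an even spread spanned 20.4 to 25.7 kb of the first 2 windows. The leading tissue's highest bin held 9.99%, 9.46% and 10.3% of its window reads. Density was highest at Mir122: in the leading tissue it was 246 reads per kb, against 45.8 at Mir124-1 and 49.5 at Mir142, in libraries of different depth. Over the 200 kb on both sides, the leading tissue was 21.8-fold (21.0 to 22.6), 6.98-fold (6.54 to 7.46) and 6.69-fold (6.25 to 7.15) denser in the window. Forward reads made up 49.7% of liver reads at Mir122, 50.5% of brain reads at Mir124-1 and 48.7% of spleen reads at Mir142, each interval including an even split.

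Repeated reads, alike in start and strand, made up 25.2% of liver reads at Mir122, against 8.87% in the whole liver library. At Mir124-1 they made up 9.39% of brain reads, against 7.12% in the library, and at Mir142 8.33% of spleen reads, against 8.52%. Among the leading tissues only liver at Mir122 thus lay far above its library. At the density of the Mir122 block, separate fragments can share a start, and these were not told apart from copies. When each start and strand was counted once, liver at Mir122 was still 20.5-fold over spleen.

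Regions elsewhere with a like pattern over the 5 tissues were found by the distance of log2 normalised counts, with 1 added, from the merged region of each window with the most reads of its leading tissue. For Mir122 that region, from 65409261 to 65409760, held 752 liver reads and 0 to 2 elsewhere. The closest of 9960 regions began at 20826141 on chromosome 18, at 95654776 on chromosome 8 and at 90905841 on chromosome 5, with 339, 224 and 489 liver reads. None of the 3 held over 5 reads of another tissue.

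For Mir124-1 the region from 65211796 to 65212295 held 125 brain reads. The closest of 5730 regions began at 31606741 on chromosome 18, at 174249461 on chromosome 1 and at 180879596 on chromosome 2, with 73, 97 and 80 reads from brain against 2 to 9 in any other library. For Mir142 the region from 87562111 to 87563815 held 214 spleen, 79 lung, 30 liver, 28 kidney and 24 brain reads. The closest of 1646 regions began at 130487421 and 53841051 on chromosome 1 and at 60972401 on chromosome 18, with 141, 177 and 155 spleen reads and 92, 87 and 104 lung reads. The distance of the first was 2.15 log2 units for Mir122, 1.17 for Mir124-1 and 0.869 for Mir142. These distances, over 5 libraries, rank likeness of level and pattern without a test. They do not rank the loci against each other. The Mir142 region is longer than the other 2, and counts were not scaled by length.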

How the data were processed

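Chromatin was fixed with 1% formaldehyde for 10 min and sheared to 0.2 to 0.8 kb, and 10 µg of antibody was used, per the labels' protocols. The authors deposited aligned reads with strand, and a list of peak positions without score for each library. Bowtie was used, per the submitters' processing notes; its version and settings, the peak caller and any control were not given in the sources used here, nor was the build. Chromosome 7 reads ran past the last gene of the GRCm38 table, so that table gave only names, gene order and sequences. Reads spanning 34 to 36 bases were kept, which dropped 4 to 15 lines from each file.

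Reads were counted at their 5′ end as deposited. Peaks were extended by 250 bp and merged, and factors are medians of ratios. A restricted bin has at least 20 reads and 4 times each other normalised count, where a count below 3 elsewhere is raised to 3. Intervals of folds are conditional binomial (Clopper-Pearson), counts have Poisson intervals. The calling of restricted bins was tested on simulated data. Members, bins named (the highest and the restricted), like regions and alternatives followed rules fixed with earlier results of these data known; the stretches within windows were set after the profiles were seen. Marker genes and microRNA processing genes were not used, since no annotation of the build was at hand. No p-value was computed. Alternatives covered scaling, repeated reads, read position, background, depth, window, bin size, fold, read minimum and peak distance. Counting and intervals ran in Python 3.11.15 with SciPy 1.17.1, NumPy 2.4.6 and pandas 2.3.3; plots were drawn with Matplotlib 3.10.9.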

Additional observations from a re-analysis of the deposited data

How the results depend on the processing

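Alternatives were run for the window folds, restricted bins, peaks near a leading peak and the 2 Mir142 stretches, 68 values in all. No fold changed direction, whereas counts of bins and peaks have no direction to change. Of the 68 values, 47 stayed within the counting interval or within 1.5 times the count. Those include the peak counts at Mir122 and Mir124-1, fixed at 0 because no other tissue had a peak there. Elsewhere scaling by total reads turned the order of liver and spleen after the Mir122 block, from spleen 1.10-fold over liver to liver 1.40-fold over spleen. It also changed the order of tissues within counting error of each other at Mir122 and Mir124-1. No paired analysis was possible because each tissue had 1 library, so no library could be left out within a tissue either. With scaling by total reads the fold of the leading over the next tissue was 38.3 at Mir122, 12.4 at Mir124-1 and 1.54 at Mir142, and Mir142 had 0 restricted bins. With the median bin density taken off, the folds at Mir122 and Mir124-1 were 81.7 and 37.1, and with windows trimmed by 5 kb at both ends 33.3 and 9.05. Counting each position and strand once gave a fold of 20.5 at Mir122. Restricted bins numbered 36, 28 and 10 at Mir122, Mir124-1 and Mir142 with bins of 250 bp, and 10, 9 and 3 with bins of 1000 bp, since the number of bins changes. At Mir142 there were 14 at 2-fold, 1 at 8-fold and 15 with lung left out, the last against 13.6% in the genome. Genome shares were not computed for the other fold limits and bin sizes. Those counts therefore show only how the number depends on the setting. Peaks of other tissues near a spleen peak of Mir142 fell from 9 to 5 within 100 bp. In the first 15 kb of Mir142 spleen over lung was 1.57 with scaling by total reads, and in the last 10 kb brain over spleen was 3.10; these stretches, and leaving out lung, were chosen after the data were seen. No stricter peak threshold was tried, as the peaks carry no score. Outside the leading tissue a bin of the Mir122 and Mir124-1 windows held at most 10 reads, which limits any statement on weak polymerase there.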
